A study of Mus musculus with 12 samples.

Results

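Described here are the Toll-like receptor genes of mouse macrophages and osteoclasts: Tlr1, Tlr2, Tlr3, Tlr4, Tlr6, Tlr7, Tlr8, Tlr9 and Tlr13, with Unc93b1, which encodes the chaperone of the endosomal receptors. These 10 genes were named as a family and matched by symbol to the Ensembl identifiers of a table of 54532 genes. The choice was made with earlier results of these data known, and the family's Tlr5, Tlr11 and Tlr12, which are near or at 0 here, are not among them. The series compared the response to a bacterial stimulus in both cell types, and the genes were read in 12 bulk RNA libraries from wild-type mouse bone marrow cells, grown in CMG medium, a source of the macrophage growth factor M-CSF. Macrophages received no RANKL, and osteoclasts were derived from the same kind of macrophage with RANKL, the cytokine that drives osteoclast formation, at a labelled 100 ng/mL. On day 5 the cells were left untreated or received lipopolysaccharide (LPS, a bacterial cell wall component) at 100 ng/mL for 3 hours, which gave 4 groups of 3 libraries: untreated macrophages, LPS-treated macrophages, untreated osteoclasts and LPS-treated osteoclasts. The labels name no strain, age, sorting step or number of mice, and nothing in them says that replicates came from separate animals or cultures. The p-values therefore measure only the spread between these libraries, which may be technical.

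Toll-like receptors recognise microbial molecules and self nucleic acids. TLR4 with its partner MD-2 senses LPS, and TLR2 pairs with TLR1 or TLR6 to sense bacterial lipopeptides at the cell surface. TLR3, TLR7, TLR8, TLR9 and TLR13 reside in endosomes, where they meet RNA or DNA, and they reach that compartment with the help of UNC93B1. Osteoclasts are bone-resorbing cells that form by fusion of cells of the monocyte and macrophage lineage, so both cell types descend from precursors that carry these receptors.

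Values are FPKM, fragments scaled to the length of the transcript and to a factor for each library that was not its read total, so levels can be set side by side between genes. The reads behind them, recovered from the steps of the values, came to between 15651736 and 20281414 per library. Markers followed the labels: the summed FPKM of a list of 9, which included Adgre1, Csf1r, Cx3cr1, Mrc1 and Lyz2, was 13799 to 13957 in untreated macrophages and 1485 to 1888 in untreated osteoclasts. Lyz2 made up most of both sums, with means of 11333 and 1327 FPKM. A list of 10 osteoclast markers, with Ctsk and Acp5 among them, summed to 29794 to 31237 FPKM in untreated osteoclasts and to 16.3 to 20.5 FPKM in untreated macrophages. No macrophage marker was at 0 in osteoclasts: Csf1r stood at 310 ± 6.85 FPKM (SD, n = 3) against 441 ± 3.92 in macrophages, Adgre1 at 33.1 ± 3.33 against 428 ± 3.49, and Cx3cr1 at 0.486 ± 0.162 against 142 ± 3.94. Markers of B cells, which express Tlr9, summed to at most 1.14 FPKM in any macrophage library and 0.134 FPKM in any osteoclast library. The dendritic cell list reached 6.12 FPKM and the neutrophil list 12.3 FPKM at most, both in LPS-treated macrophages. Stromal markers summed to 25.5 to 35.8 FPKM in untreated macrophages and to at most 0.710 FPKM in osteoclasts, and T and NK cell markers to at most 3.96 FPKM, with Cd3g and Ncr1 at 0 in untreated osteoclasts. Nearly all of that sum was Trac, which was higher in untreated osteoclasts, at 3.84 ± 0.12 against 0.124 ± 0.070 FPKM in macrophages (log2 difference 2.11, SE 0.07, adjusted p = 3.61e-11).

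**Figure D1:**
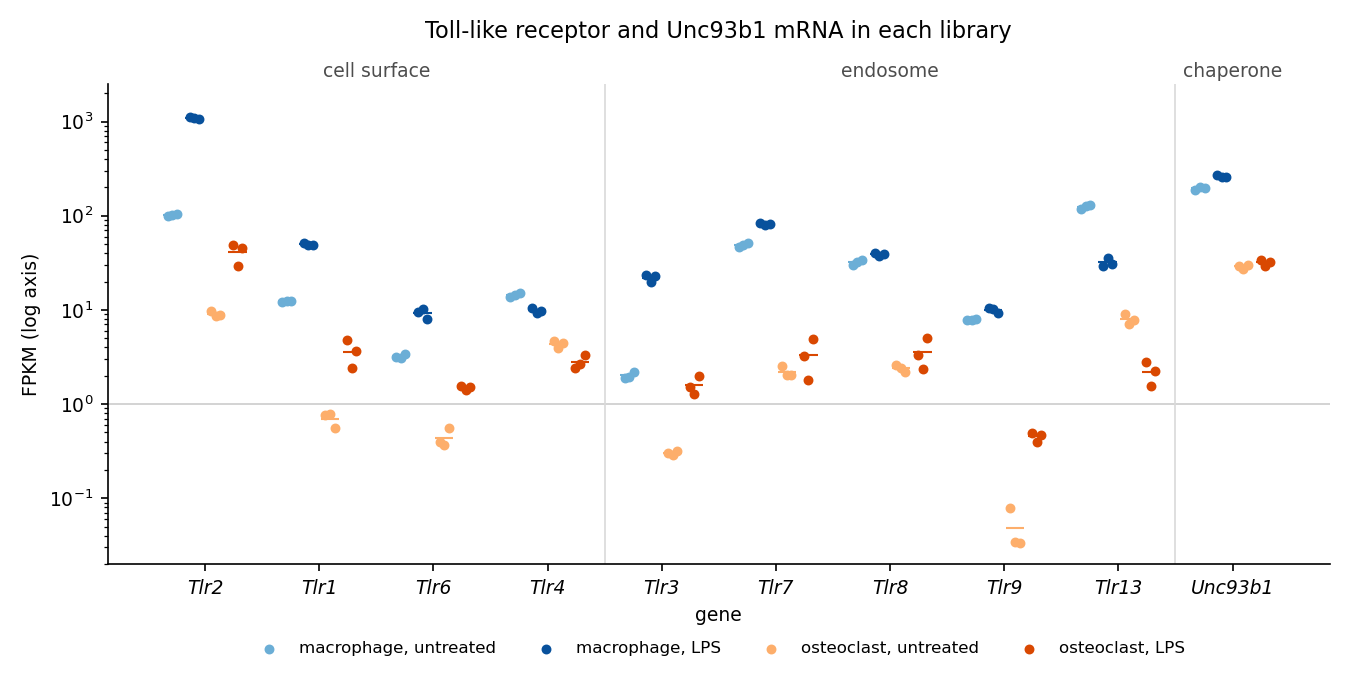
FPKM (log axis) of the 9 Toll-like receptor genes and Unc93b1 in each of the 12 libraries, by group; points are libraries, short lines are group means, and the grey line marks 1 FPKM. For each gene, all 6 osteoclast libraries lie below the macrophage libraries of the same treatment, and Tlr2 spans the range from 8.70 to 1116 FPKM.

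In untreated osteoclasts all 10 genes were lower than in untreated macrophages, at an adjusted p under 0.05, and no osteoclast library reached the lowest macrophage library for any of them. The background is wide: of 11335 genes tested, 77.8% were called in either direction and 39% were called lower, and 81.4% had groups that did not overlap. The median log2 difference of the 10 genes was -3.03, while that of all genes tested was 0. With LPS in both cell types, all 10 were again lower in osteoclasts, and none overlapped. Of all genes 83.9% were called in either direction, 40.9% higher and 43% lower, and 83.6% did not overlap. The median log2 difference of the 10 genes was then -3.16 against -0.02 over all genes. Ratios of mean FPKM ran from 3.28-fold lower for Tlr4 to 162-fold lower for Tlr9 without LPS, and from 3.53-fold lower for Tlr4 to 26.6-fold lower for Tlr2 with LPS. The 9 macrophage markers were also all lower in osteoclasts, at between 0.00342 and 0.704 of their macrophage level without LPS. Fewer cells of a type and less RNA per cell cannot be told apart in bulk samples, and the part that leftover macrophages take in the osteoclast values was not tested.

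**Figure D2:**
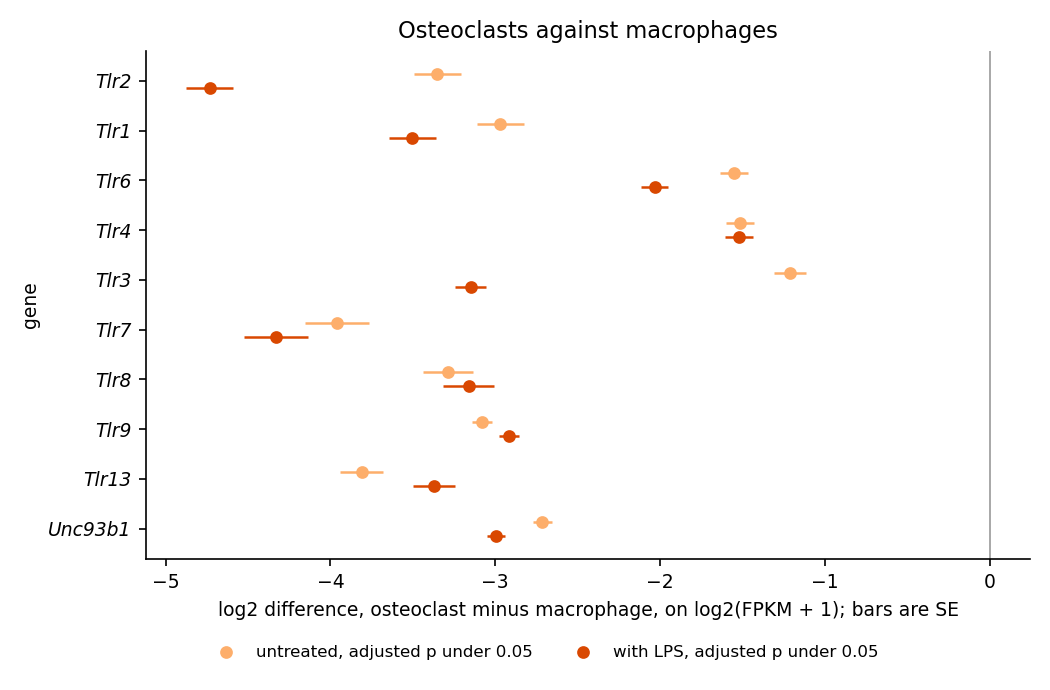
Log2 difference between osteoclasts and macrophages (osteoclast minus macrophage, on log2(FPKM + 1)) for each gene, without LPS (light) and with LPS (dark); bars are standard errors from limma. All 20 points lie below 0, from -4.73 for Tlr2 with LPS to -1.21 for Tlr3 without LPS.

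The test was limma on log2(FPKM + 1), with p-values adjusted over all genes tested. All 10 genes passed the filter of 1 FPKM in at least 3 libraries, but Tlr1, Tlr3 and Tlr6 were under 1 FPKM in every untreated osteoclast library and Tlr9 in every osteoclast library. These 4 entered through other groups, so their passing supports nothing. On this scale a change at low FPKM is also understated, which is why ratios of mean FPKM are given beside the log2 differences.

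LPS divided the family in macrophages. Of the 10 genes, 7 rose (Tlr1, Tlr2, Tlr3, Tlr6, Tlr7, Tlr9 and Unc93b1), 2 fell (Tlr4 and Tlr13) and Tlr8 was not called, where Tlr9 and Unc93b1 turned to lower when libraries were rescaled to TPM. Among all genes 69.9% were called, 36.8% higher and 33.1% lower. The libraries with and without LPS were apart for all 10 genes, and for 74% of all genes. In osteoclasts 5 rose (Tlr1, Tlr2, Tlr3, Tlr6 and Tlr9), the same Tlr4 and Tlr13 fell, and Tlr7, Tlr8 and Unc93b1 were not called, where 17.7% of all genes were called, 11.1% higher and 6.59% lower. The libraries were apart for 7 of the 10 genes in osteoclasts, and for 34% of all genes. The median log2 difference of the 10 genes was 0.58 in macrophages and 0.43 in osteoclasts, against 0.02 and 0.01 over all genes tested. The test of the difference between the LPS effects, the interaction, called 5 genes, all with a smaller rise in osteoclasts on this scale (Tlr1, Tlr2, Tlr3, Tlr6 and Unc93b1, of which Tlr1, Tlr6 and Unc93b1 changed sign on other scales), against 56.6% of all genes called and 30% called lower.

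The scaling of the libraries bears on the smaller of these changes. The deposited values sum to 255852 to 261584 per library in untreated macrophages and to 399796 to 408994 with LPS. Rescaling each library to the same sum, as TPM, put the median over all genes at a log2 difference of -0.55 for the LPS effect in macrophages, -0.38 and 0.12 for osteoclasts against macrophages without and with LPS, and 0.51 for the interaction. After that rescaling 4 of the 10 genes were higher and 4 lower with LPS in macrophages, where 15.9% of all genes were higher and 70% lower. The interaction called 5 above 0 and 2 below, and 63.3% and 13.9% of all genes. The rises of Tlr1, Tlr2, Tlr3 and Tlr6, the falls of Tlr4 and Tlr13, the lower level of all 10 genes in osteoclasts, and the smaller rise of Tlr2 and Tlr3 in osteoclasts kept their direction and call under every alternative in which those genes were tested.

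**Figure D3:**
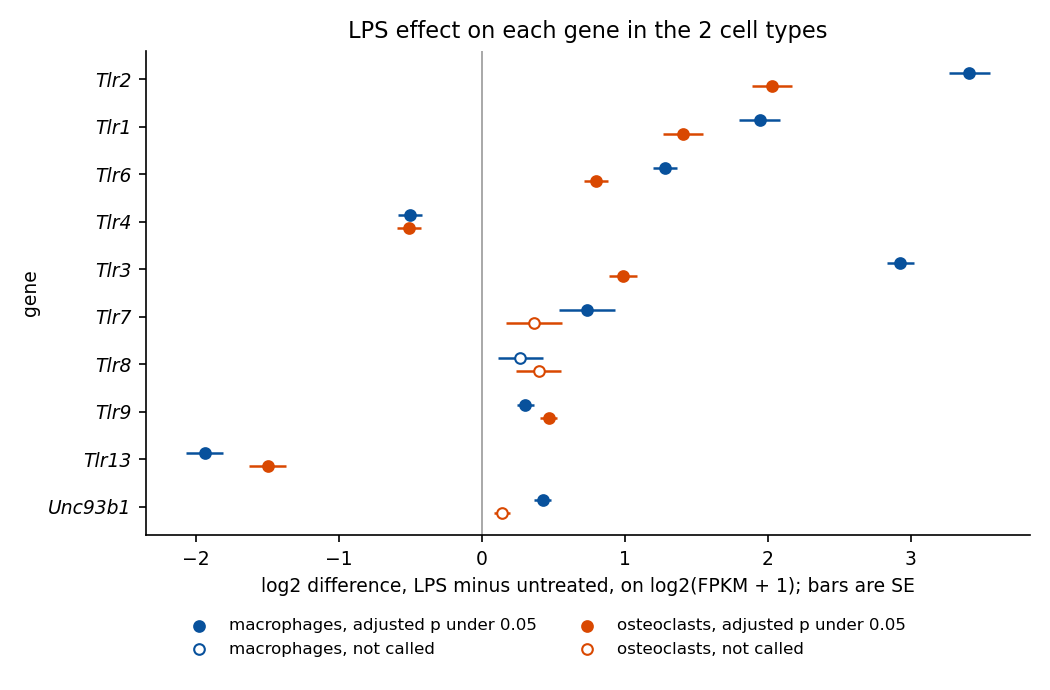
Log2 difference between LPS-treated and untreated libraries (on log2(FPKM + 1)) in macrophages (blue) and osteoclasts (orange) for each gene; bars are standard errors from limma, and open circles were not called. Tlr2 rose by 3.41 in macrophages and 2.03 in osteoclasts, while Tlr13 fell by 1.93 and 1.49.

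Among the surface receptors, Tlr2 had the highest level with LPS in both cell types. The gene lies at chr3:83836272-83841767 on the minus strand (GRCm38, the build called mm10). It read 98.9, 102 and 104 FPKM in untreated macrophages and 1116, 1090 and 1063 with LPS, and 9.71, 8.70 and 8.80 FPKM in untreated osteoclasts and 49.2, 29.0 and 44.9 with LPS. None of the 4 groups overlapped, and LPS-treated osteoclasts stayed below untreated macrophages. LPS raised mean FPKM 10.7-fold in macrophages (log2 difference 3.41, SE 0.14, adjusted p = 5.67e-10) and 4.52-fold in osteoclasts (2.03, SE 0.14, adjusted p = 1.03e-06). The rise in osteoclasts was smaller by 1.38 on the log2 scale (interaction -1.38, SE 0.20, adjusted p = 9.48e-05).

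The stretch upstream of Tlr2 is shown because it holds a match to the NF-kB motif, and NF-kB is the factor that carries much of TLR signalling. Matches to that motif occur in the 250 bases before the start of 7.25% of 32851 RefSeq promoters (GRCm38.p6, both strands searched). Of the other members, Tlr3 holds a match as well, at -211 to -202, inside an annotated exon. The stretch is chr3:83841768-83841858 on the minus strand, read 5′ to 3′, bases -250 to -160 from the RefSeq start, with annotated exon bases left out. Capitals mark 2 overlapping matches, at -173 to -164 and -172 to -163, the second of which reads on both strands.
Tlr2: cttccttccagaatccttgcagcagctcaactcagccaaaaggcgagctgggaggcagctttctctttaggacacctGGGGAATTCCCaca

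Tlr1 and Tlr6, the partners of TLR2, are neighbours on chromosome 5, at chr5:64924679-64933563 and chr5:64952031-64960097, both on the minus strand and 18467 bases apart. Tlr1 read 12.04, 12.3 and 12.6 FPKM in untreated macrophages and 51.9, 49.3 and 49.1 with LPS, and 0.761, 0.778 and 0.563 FPKM in untreated osteoclasts and 4.74, 2.38 and 3.70 with LPS. Tlr6 read 3.16, 3.09 and 3.37 FPKM in untreated macrophages and 9.54, 10.3 and 7.94 with LPS, and 0.393, 0.365 and 0.553 FPKM in untreated osteoclasts and 1.56, 1.41 and 1.51 with LPS. Both genes separated all 4 groups without overlap, and in both the order of the groups was that of Tlr2. With LPS, mean FPKM of Tlr1 rose 4.07-fold in macrophages (log2 difference 1.94, SE 0.14, adjusted p = 1.12e-07) and 5.15-fold in osteoclasts (1.41, SE 0.14, adjusted p = 2.33e-05). Mean FPKM of Tlr6 rose 2.88-fold in macrophages (1.28, SE 0.08, adjusted p = 4.10e-08) and 3.42-fold in osteoclasts (0.80, SE 0.08, adjusted p = 3.34e-05).

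For Tlr1 and Tlr6 the sign of the interaction turned on the scale. It was -0.53 (SE 0.20, adjusted p = 0.0392) and -0.48 (SE 0.12, adjusted p = 0.00436) with a pseudocount of 1. With a pseudocount of 0.1 it was 0.15 and 0.094, with TPM scaling 0.45 and 0.36, and in limma's voom fit on the recovered reads 0.32 and 0.27, none of which was called. For Tlr1 it also lost its call without a filter on low values, after quantile normalization, and in 9 of the 12 fits that left out a library. So a difference in how strongly LPS raised Tlr1 and Tlr6 in the cell types was not detectable beyond the choice of scale.

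The counting of these neighbours carries an uncertainty of its own. Their transcripts share 454 stretches of 50 bases, 13.6% of those in Tlr1 and 12.3% of those in Tlr6, and the longest identical run is 229 bases. Reads from that run cannot be told apart, and how they were counted is not given in the sources used here. The ratio of Tlr1 to Tlr6 was 3.84 ± 0.13 in untreated macrophages, 5.47 ± 0.69 with LPS, 1.70 ± 0.59 in untreated osteoclasts and 2.39 ± 0.68 with LPS (SD, n = 3 each). The ranges of the osteoclast libraries lay below those of the macrophage libraries, and within osteoclasts those with and without LPS overlapped.

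The Tlr6 promoter at the RefSeq start 64959166 is shown because it held the core of the interferon-stimulated response element. That core is GAAA followed by any 2 bases and GAAA, present in 2.98% of all promoters within 250 bases on either strand. No other of the 9 RefSeq promoters found for 7 of the 10 genes held it. Tlr6 has a further RefSeq start upstream, at 64960048, and the promoter of that start was among those without a match. The stretch is chr5:64959167-64959416 on the minus strand, bases -250 to -1. Capitals mark 2 overlapping matches on the opposite strand, at -116 to -107 and -110 to -101.
Tlr6: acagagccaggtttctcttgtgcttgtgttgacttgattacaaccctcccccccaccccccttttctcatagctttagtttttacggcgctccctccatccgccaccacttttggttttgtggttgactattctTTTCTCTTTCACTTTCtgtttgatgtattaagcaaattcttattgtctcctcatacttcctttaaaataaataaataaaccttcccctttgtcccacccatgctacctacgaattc

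Tlr4, the LPS receptor itself (chr4:66827584-66930284, plus strand), moved the other way. It read 13.6, 14.4 and 15.2 FPKM in untreated macrophages and 10.6, 9.26 and 9.75 with LPS, and 4.72, 3.93 and 4.49 FPKM in untreated osteoclasts and 2.42, 2.67 and 3.28 with LPS. The groups did not overlap, and untreated osteoclasts stayed under LPS-treated macrophages. Mean FPKM fell 1.46-fold in macrophages (log2 difference -0.50, SE 0.09, adjusted p = 2.34e-04) and 1.57-fold in osteoclasts (-0.51, SE 0.09, adjusted p = 0.00147). After rescaling to TPM the falls were unequal, at -1.16 in macrophages and -0.66 in osteoclasts. The interaction was -0.01 (SE 0.12, adjusted p = 0.969) as deposited and 0.50 (adjusted p = 0.0104) after rescaling to TPM. With a deficit of 3.28-fold without LPS and 3.53-fold with it, Tlr4 had the smallest ratio between macrophages and osteoclasts of the 10 genes.

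With LPS the balance of the surface receptors shifted towards Tlr2. The ratio of Tlr2 to Tlr4 was 7.09 ± 0.20 in untreated macrophages and 110.8 ± 6.18 with LPS, and 2.08 ± 0.13 in untreated osteoclasts and 14.95 ± 4.88 with LPS (SD, n = 3 each). The ratio of Tlr2 to Tlr1 rose from 8.28 ± 0.06 to 21.8 ± 0.31 in macrophages, and was 13.2 ± 2.27 and 11.6 ± 1.02 in osteoclasts, where the libraries with and without LPS overlapped.

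Of the endosomal receptors Tlr3, the sensor of double-stranded RNA (chr8:45395665-45411080, minus strand), rose with LPS in macrophages by a factor close to that of Tlr2. It read 1.91, 1.94 and 2.20 FPKM in untreated macrophages and 23.5, 19.7 and 22.7 with LPS, and 0.302, 0.284 and 0.316 FPKM in untreated osteoclasts and 1.52, 1.27 and 2.00 with LPS. The LPS-treated osteoclast libraries overlapped those of untreated macrophages, and every other pair of groups was apart. Mean FPKM rose 10.9-fold in macrophages (log2 difference 2.93, SE 0.10, adjusted p = 6.43e-11) and 5.31-fold in osteoclasts (0.99, SE 0.10, adjusted p = 1.72e-05). The interaction was -1.94 (SE 0.14, adjusted p = 1.75e-07), and -1.06 on voom's scale of read ratios. The antisense gene Gm45542 covers 7.32% of the exon bases of Tlr3 and was listed at no more than 0.103 FPKM in any library.

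Tlr7 and Tlr8, sensors of single-stranded RNA and its breakdown products, are neighbours on the X chromosome, at chrX:167304929-167330558 and chrX:167242696-167264329, both on the minus strand and 40599 bases apart. Tlr7 read 46.3, 49.3 and 51.1 FPKM in untreated macrophages and 84.6, 79.9 and 81.4 with LPS, and 2.51, 2.06 and 2.05 FPKM in untreated osteoclasts and 3.22, 1.80 and 4.91 with LPS. Tlr8 read 30.0, 32.3 and 33.9 FPKM in untreated macrophages and 39.9, 37.4 and 39.3 with LPS, and 2.57, 2.43 and 2.17 FPKM in untreated osteoclasts and 3.35, 2.37 and 5.03 with LPS. In macrophages the groups of both genes were apart, and in osteoclasts those with and without LPS overlapped in both, with replicate 2 the lowest LPS-treated library.

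Tlr7 rose 1.68-fold with LPS in macrophages (log2 difference 0.73, SE 0.19, adjusted p = 0.00497), a call lost with TPM scaling (0.10) and with quantile normalization (0.042). Tlr8 was 1.21-fold higher in mean FPKM but not called (0.27, SE 0.15, adjusted p = 0.137). Its libraries did not overlap, and the call was made when macrophages were fitted on their own (adjusted p = 0.00274) and in voom (adjusted p = 0.00493). After rescaling to TPM its difference was -0.37 and not called. In osteoclasts the LPS differences were 0.36 (SE 0.19, adjusted p = 0.231) for Tlr7 and 0.40 (SE 0.15, adjusted p = 0.102) for Tlr8. For Tlr8 the interaction was 0.13 (SE 0.22, adjusted p = 0.648). It was called with TPM scaling (0.77, adjusted p = 0.0143) and with quantile normalization (0.64, adjusted p = 0.0173).

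Between the neighbours, Tlr7 was ahead in macrophages and not in osteoclasts. The ratio of Tlr7 to Tlr8 was 1.53 ± 0.02 in untreated macrophages and 2.11 ± 0.04 with LPS, against 0.923 ± 0.067 in untreated osteoclasts and 0.898 ± 0.122 with LPS (SD, n = 3 each). All 6 macrophage libraries gave a ratio of at least 1.51, and all 6 osteoclast libraries one of at most 0.977. The deficit in untreated osteoclasts was 22.2-fold for Tlr7 and 13.4-fold for Tlr8.

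Tlr9, the receptor for unmethylated CpG DNA (chr9:106222598-106226883, plus strand), was close to the limit of detection in osteoclasts. It read 7.73, 7.80 and 8.10 FPKM in untreated macrophages and 10.4, 10.3 and 9.17 with LPS, and 0.0779, 0.0340 and 0.0338 FPKM in untreated osteoclasts and 0.494, 0.392 and 0.473 with LPS. The osteoclast values rest on 5, 2 and 2 reads without LPS and 34, 21 and 30 reads with it, while the untreated macrophage libraries held 1888 reads in all. The ratio of read rates between untreated macrophages and untreated osteoclasts was 159 (exact 95% interval 83.7 to 349), and with LPS it was 21.8 (17.5 to 27.5). These intervals cover counting error only.

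With LPS, mean FPKM of Tlr9 was 1.27-fold higher in macrophages (log2 difference 0.30, SE 0.06, adjusted p = 6.26e-04), a direction that turned after rescaling to TPM (-0.30). In osteoclasts the mean was 9.32-fold higher (log2 difference 0.47, SE 0.06, adjusted p = 1.53e-04), with 85 reads against 9 over the 3 libraries. The interaction was 0.17 (SE 0.08, adjusted p = 0.115) with a pseudocount of 1. It was 1.57 with a pseudocount of 0.1 and 2.76 in voom (adjusted p = 7.61e-05). After rescaling to TPM it was 1.28 (adjusted p = 2.17e-06), and after quantile normalization 0.32 (adjusted p = 0.00455). The interaction was called in each of these fits. The highest LPS-treated osteoclast library stood at 0.494 FPKM.

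Tlr13, the sensor of bacterial 23S ribosomal RNA in mice (chrX:106143204-106160493, plus strand), was the receptor with the highest level in untreated macrophages and the one that LPS lowered most. It read 118, 126 and 129 FPKM in untreated macrophages and 29.1, 35.7 and 30.9 with LPS, and 9.11, 6.998 and 7.76 FPKM in untreated osteoclasts and 2.78, 1.57 and 2.27 with LPS. No groups overlapped. Mean FPKM fell 3.90-fold in macrophages (log2 difference -1.93, SE 0.13, adjusted p = 4.90e-08) and 3.61-fold in osteoclasts (-1.49, SE 0.13, adjusted p = 6.58e-06). The interaction was 0.44 (SE 0.18, adjusted p = 0.0591) and 0.12 in voom (adjusted p = 0.635). It was called with TPM scaling (0.81), with quantile normalization (1.16), under the filter on a mean of 5 FPKM (0.44), and without replicate 2 of the LPS-treated macrophages (0.52), replicate 1 of the untreated osteoclasts (0.53) or replicate 2 of the LPS-treated osteoclasts (0.59).

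The upstream stretch of Tlr13 is shown because it holds GAGGAA, the core that binds PU.1, a factor that macrophages and osteoclasts both need. That core is common, in 23.3% of promoters within 250 bases on either strand, and the promoters of Tlr1, Tlr8 and Tlr9 held it too. The stretch is chrX:106143025-106143203 on the plus strand, bases -250 to -72, and capitals mark the match at -83 to -78.
Tlr13: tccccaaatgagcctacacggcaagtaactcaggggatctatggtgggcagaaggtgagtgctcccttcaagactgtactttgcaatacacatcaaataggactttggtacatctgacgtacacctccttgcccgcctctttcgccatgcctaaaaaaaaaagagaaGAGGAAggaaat

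These matches are descriptions of the letters and not of bound sites. Spi1, which encodes PU.1, was itself higher in untreated osteoclasts, at 278 ± 8.52 against 129 ± 5.02 FPKM in untreated macrophages (SD, n = 3 each; log2 difference 1.10, SE 0.04, adjusted p = 1.64e-10).

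Unc93b1, which escorts the endosomal receptors out of the endoplasmic reticulum (chr19:3935186-3949340, plus strand), was the most abundant of the 10 transcripts in untreated cells of both types. It read 189, 201 and 196 FPKM in untreated macrophages and 272, 255 and 260 with LPS, and 29.4, 27.2 and 30.2 FPKM in untreated osteoclasts and 34.2, 29.6 and 32.5 with LPS. Macrophage groups were apart, while the osteoclast groups with and without LPS overlapped. With LPS mean FPKM was 1.34-fold higher in macrophages (log2 difference 0.42, SE 0.06, adjusted p = 2.51e-05), but -0.22 with TPM scaling and -0.42 with quantile normalization. In osteoclasts the difference was 0.14 (SE 0.06, adjusted p = 0.103). The interaction of -0.28 (SE 0.08, adjusted p = 0.00959) likewise turned to 0.30 under TPM and 0.47 under quantile normalization.

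Set against its clients, Unc93b1 was relatively more abundant in osteoclasts. The ratio of Unc93b1 to the summed FPKM of the 5 endosomal receptors was 0.909 ± 0.030 in untreated macrophages, 1.42 ± 0.03 with LPS, 2.26 ± 0.22 in untreated osteoclasts and 3.07 ± 0.89 with LPS (SD, n = 3 each). All osteoclast libraries lay above all macrophage libraries, with 2.02 as the lowest osteoclast ratio and 1.45 as the highest in macrophages. The deficit of Unc93b1 in untreated osteoclasts was 6.75-fold, against 6.70-fold for Tlr3, 13.4-fold for Tlr8, 15.6-fold for Tlr13, 22.2-fold for Tlr7 and 162-fold for Tlr9.

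The share of surface receptors among the receptor transcripts was larger with LPS in both cell types. Surface receptors (Tlr1, Tlr2, Tlr4 and Tlr6) made up 38.0% ± 0.47 of the summed FPKM of the 9 receptors in untreated macrophages and 86.3% ± 0.20 with LPS, and 53.1% ± 1.27 in untreated osteoclasts and 81.6% ± 2.76 with LPS (SD, n = 3 each). The ranges of the 4 groups did not overlap. The summed surface level went from 132 to 1159 FPKM in macrophages and from 14.6 to 48.9 FPKM in osteoclasts. The summed endosomal level went from 215 ± 10.5 to 185 ± 2.43 FPKM in macrophages. In osteoclasts it was 12.9 ± 1.47 and 11.1 ± 3.65 FPKM, and the groups overlapped (11.8 to 14.6 without LPS, 7.40 to 14.7 with it). In total the receptors came to 347 ± 14.3 FPKM in untreated macrophages, 1343 ± 31.1 with LPS, 27.5 ± 2.38 in untreated osteoclasts and 60.1 ± 14.9 with LPS.

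**Figure D4:**
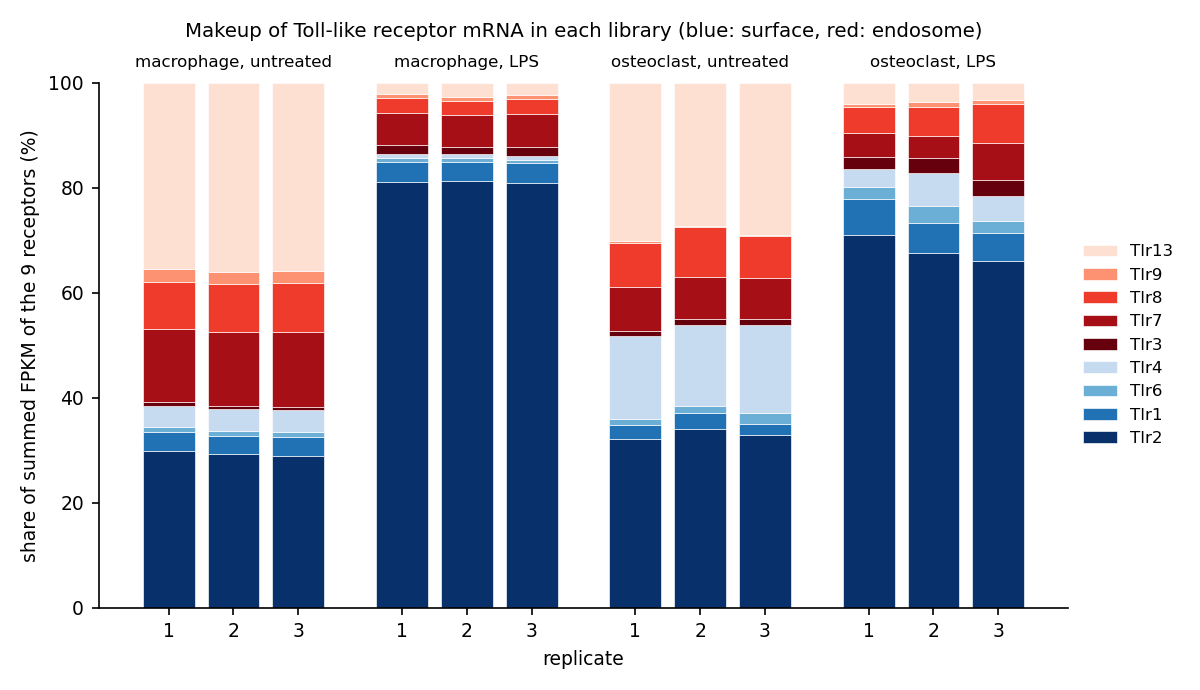
Share (%) of each receptor in the summed FPKM of the 9 Toll-like receptors, library by library, with surface receptors in blue and endosomal receptors in red. With LPS the surface share rose from 38.0% to 86.3% in macrophages and from 53.1% to 81.6% in osteoclasts, and most of it was Tlr2.

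The order of the 10 genes by mean FPKM changed with treatment. In untreated macrophages it was Unc93b1, Tlr13, Tlr2, Tlr7, Tlr8, Tlr4, Tlr1, Tlr9, Tlr6 and Tlr3, and no neighbours in that order overlapped. In LPS-treated macrophages it was Tlr2, Unc93b1, Tlr7, Tlr1, Tlr8, Tlr13, Tlr3, Tlr9, Tlr4 and Tlr6, and the last 3 did not differ beyond their spread. In untreated osteoclasts it was Unc93b1, Tlr2, Tlr13, Tlr4, Tlr8, Tlr7, Tlr1, Tlr6, Tlr3 and Tlr9, where Tlr2 overlapped Tlr13 and Tlr8 overlapped Tlr7. In LPS-treated osteoclasts Tlr2 and Unc93b1 led with overlapping values, Tlr9 was last and apart, and each of the 7 genes between them overlapped its neighbour.

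LPS-treated osteoclasts were the most variable group. Chi-square per degree of freedom over genes was 11.6 between replicates 1 and 2, 8.07 between 1 and 3 and 8.43 between 2 and 3. Replicate 1 was the highest for 6 of the 10 genes and replicate 3 for 4, with Tlr7 at 148% and Tlr8 at 140% of the group mean in replicate 3. Replicate 2 was the lowest of the 3 libraries for 9 of the 10 genes. Tlr7 was at 54.3% of the group mean there, Tlr1 at 66.1%, Tlr2 at 70.7% and Unc93b1 at 92.1%. Tlr4, with its lowest value in replicate 1, was the exception. The same library was the lowest for 8 of the 9 macrophage markers, with Lyz2 at 63.8%, Mrc1 at 58.0% and Adgre1 at 68.4% of the group mean, and Csf1r at 104% the exception. For 7 of the 10 osteoclast markers it was the highest. So the low library was the same for most Toll-like receptors and most macrophage markers in this group, and the part of macrophage content in the osteoclast values was not tested. In untreated osteoclasts replicate 2 was the lowest for 6 of 10 members and 7 of 9 macrophage markers, and replicate 1 the highest for 6 of each. In untreated macrophages the members also moved together, with replicate 1 the lowest for 9 of 10 and replicate 3 the highest for 9, but there 5 of the 9 macrophage markers were lowest in replicate 3. Without replicate 2 of the LPS-treated osteoclasts the LPS effect in osteoclasts was called for all 10 genes and for 17.9% of all genes tested, as Tlr7 (0.64), Tlr8 (0.60) and Unc93b1 (0.20) were then higher at an adjusted p under 0.05. No other fit that left out a library called any of them. Over all such fits the difference ran from 0.10 to 0.64 for Tlr7, from 0.18 to 0.60 for Tlr8 and from 0.098 to 0.20 for Unc93b1.

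**Figure D5:**
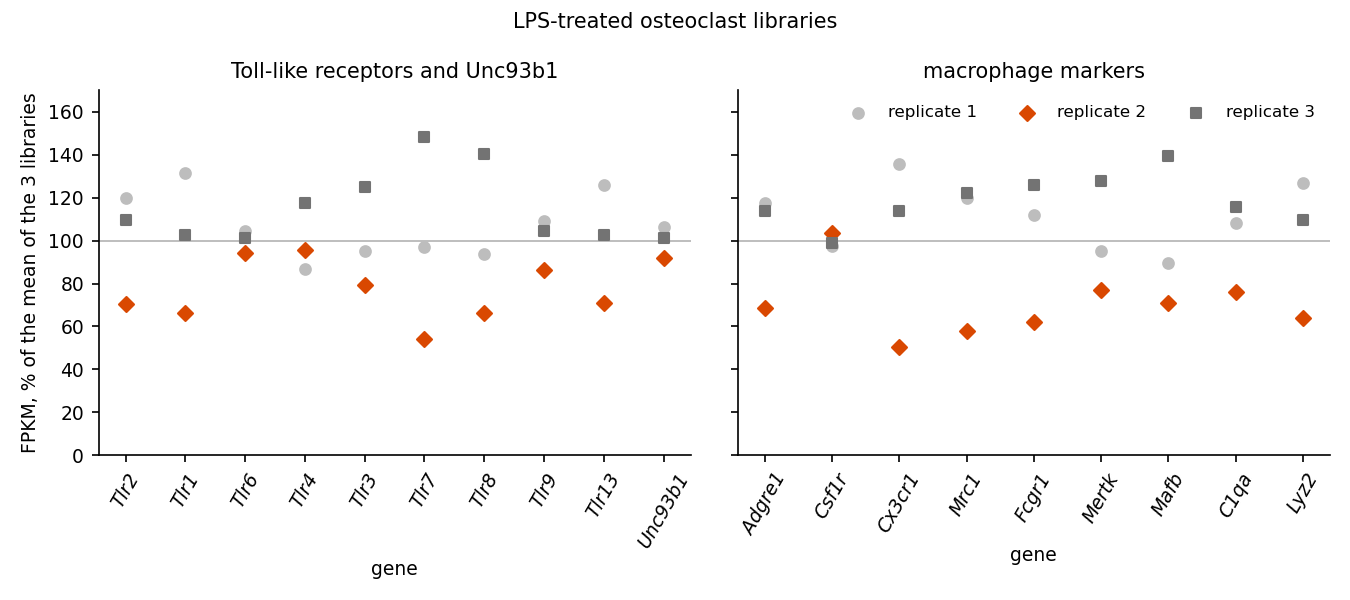
FPKM in each LPS-treated osteoclast library as a percentage of the mean of the 3 libraries, for the 10 genes (left) and for the 9 macrophage markers (right). Replicate 2 (orange diamonds) is the lowest library for 9 of the 10 genes and for 8 of the 9 markers.

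The genes around the receptors were taken from 8 lists of co-receptors, chaperones, proteases, adapters, kinases, inhibitors, transcription factors and further receptors. Of 55 tested list genes, LPS raised 38 and lowered 7 in macrophages, and raised 15 and lowered 2 in osteoclasts. Over all genes tested, LPS raised 36.8% and lowered 33.1% in macrophages, and raised 11.1% and lowered 6.59% in osteoclasts. After rescaling to TPM the list counts were 23 and 25, and 14 and 8, where the shares of all genes were 15.9% and 70%, and 8.29% and 10.8%. In untreated osteoclasts 13 were higher and 34 lower than in macrophages, and with LPS 11 were higher and 40 lower, where 38.8% and 39% of all genes, and 40.9% and 43%, were called so. With TPM scaling the list counts were 9 and 42 without LPS, and 13 and 39 with it. Of all 11335 genes tested, that scaling called 2760 higher and 6457 lower without LPS, and 5224 and 4306 with it. The interaction called 3 above 0 and 34 below, against 26.6% and 30% of all genes, and with TPM scaling 22 and 20, against 63.3% and 13.9% of all genes. Each list that follows is to be read against the shares of the same scaling. The median log2 differences were 0.43 and 0.07 for LPS in macrophages and osteoclasts, and -0.22 and -1.09 for osteoclasts against macrophages without and with LPS, while those of all genes lay between -0.02 and 0.02.

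Of 7 tested co-receptors and binding proteins, LPS raised 5 and lowered 1 in macrophages and raised 2 in osteoclasts, and 6 were lower in untreated osteoclasts. After rescaling to TPM the macrophage split was 3 and 3, with Cd180 (-0.30), Cd36 (-0.50) and Hmgb1 (-0.80) lower. Cd14, which hands LPS to TLR4, rose from 109 ± 7.93 to 779 ± 27.6 FPKM in macrophages and from 16.2 ± 0.39 to 45.3 ± 10.3 in osteoclasts (SD, n = 3 each), with a smaller rise in osteoclasts (interaction -1.43, SE 0.18, adjusted p = 2.48e-05). Ly96, which encodes MD-2, was the list gene that went against the rest, at 9.15 ± 1.17 FPKM in untreated osteoclasts against 4.57 ± 0.38 in untreated macrophages (log2 difference 0.86, SE 0.10, adjusted p = 6.54e-06). So the osteoclasts had more Ly96 and less Tlr4 than macrophages before LPS. With LPS the level of Ly96 in macrophages was 9.85 ± 0.79 FPKM, and the cell types were no longer called apart (-0.03, SE 0.10, adjusted p = 0.791).

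Of 5 tested adapters, LPS raised 3 in macrophages and 1 in osteoclasts, and with TPM scaling it raised 2 and lowered 1 in macrophages. Myd88, the adapter of every receptor here but TLR3, rose from 14.2 ± 2.15 to 104 ± 4.32 FPKM in macrophages and from 9.70 ± 0.78 to 14.5 ± 0.41 in osteoclasts (interaction -2.26, SE 0.12, adjusted p = 2.11e-08). Ticam1, which encodes TRIF, the adapter of TLR3 and of endosomal TLR4, was higher in untreated osteoclasts, at 13.8 ± 0.57 against 5.10 ± 0.53 FPKM (log2 difference 1.29, SE 0.08, adjusted p = 9.33e-09). Ticam2, which encodes the bridge between TLR4 and TRIF, was lower there, at 0.262 ± 0.033 against 2.78 ± 0.13 FPKM (-1.58, SE 0.11, adjusted p = 3.33e-08).

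Of 9 folding and trafficking genes, 2 were higher and 6 lower in untreated osteoclasts. Hsp90b1, which encodes the chaperone gp96, was 113 ± 6.60 against 131 ± 13.8 FPKM (-0.20, SE 0.08, adjusted p = 0.0309), and its cofactor Cnpy3 was 9.94 ± 0.31 against 28.5 ± 0.73 (-1.43, SE 0.04, adjusted p = 1.74e-11). Slc15a3, an endolysosomal transporter, had the widest gap of the list, at 1.98 ± 0.30 against 35.4 ± 0.505 FPKM (-3.62, SE 0.12, adjusted p = 5.07e-11), and LPS raised it in both cell types. Of 11 endosomal proteases and nucleases, 1 was higher in untreated osteoclasts and 8 lower. The higher gene was Ctsk, the collagen-degrading protease of osteoclasts, which is also on the osteoclast marker list. Ctss stood at 163 ± 18.0 against 672 ± 5.40 FPKM and Lgmn, the asparagine endopeptidase, at 67.0 ± 2.54 against 537 ± 17.2.

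Of 11 kinases and ligases, LPS raised 8 and lowered 2 in macrophages and raised 4 in osteoclasts, where 69.9% and 17.7% of all genes were called in either direction. With TPM scaling the macrophage split was 5 and 4. Traf6, the ubiquitin ligase that also serves RANK, was higher in untreated osteoclasts, at 14.4 ± 0.74 against 5.90 ± 0.18 FPKM (1.16, SE 0.06, adjusted p = 3.49e-09). Of 5 tested inhibitors, LPS raised 5 in macrophages and 3 in osteoclasts, but with TPM scaling it raised 2 and lowered 2 in macrophages and raised 2 in osteoclasts. Tnfaip3, which encodes the deubiquitinase A20, rose from 6.27 ± 0.16 to 502 ± 9.36 FPKM in macrophages and from 19.6 ± 1.02 to 44.3 ± 0.62 in osteoclasts, so that it was higher in osteoclasts without LPS and lower with it. Of 7 transcription factors, LPS raised 6 in macrophages and 4 in osteoclasts, and with TPM scaling it also lowered 1 in each. Irf7, a factor that endosomal receptors activate, rose from 6.39 ± 0.68 to 111 ± 9.57 FPKM and from 1.17 ± 0.23 to 8.68 ± 2.51, while Irf8 rose from 22.7 ± 1.05 to 95.1 ± 5.95 in macrophages and was 1.08 ± 0.08 and 0.745 ± 0.236 in osteoclasts.

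The other 3 Toll-like receptor genes of the mouse, Tlr5, Tlr11 and Tlr12, did not pass the filter. Tlr5, the flagellin receptor, was at 0.649 ± 0.135 FPKM in untreated macrophages and at 0.215 ± 0.022 with LPS, and at 0.0517 ± 0.0249 and 0.00803 ± 0.00711 in osteoclasts (SD, n = 3 each). Tlr11 had 3 reads over all 12 libraries and Tlr12 had 0.

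Genes most like each member over the 4 group means were ranked among 10353 genes by the root mean square difference of log2(FPKM + 1), after each gene's own mean was taken off. This is a description over 4 groups only. Tlr2 was closest to Themis2 (0.15), Gpr84 (0.26) and Marcks (0.26), and Tlr1 to Clec4a1 (0.08), Fam129a (0.14) and Cxcl16 (0.18). Tlr7 was closest to C5ar1 (0.07), Tlr8 to Igfbp7 (0.02), Tlr9 to Igfbp7 (0.11), Tlr4 to Gclm (0.05), Tlr6 to Cebpd (0.10) and Unc93b1 to Ms4a14 (0.01). Tlr13 was closest to Ccnd1 (0.14), which went from 162 to 44.8 FPKM with LPS in macrophages and from 9.85 to 4.09 in osteoclasts. Tlr3 was closest to the processed pseudogene Gm5345 (0.06), whose reads may be shared with a parent gene, then Pnp (0.08) and Gpr85 (0.10). These distances hold for log2(FPKM + 1) only, a scale that draws low levels together. Igfbp7 went from 9.66 FPKM in untreated macrophages to 0.111 in untreated osteoclasts and Tlr8 from 32.1 to 2.39, so their ratios between the cell types were unlike. Within the family Tlr8 and Tlr9 had the smallest distance on that scale (0.12) and Tlr2 and Tlr13 the widest (2.27). As ratios Tlr8 and Tlr9 were far apart, 13.4-fold and 162-fold lower in untreated osteoclasts. Mean FPKM in osteoclasts without and with LPS was 2.39 and 3.58 for Tlr8, which was not called, and 0.0486 and 0.453 for Tlr9.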

How the data were processed

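The data were 12 bulk RNA libraries. The values were deposited by the authors as FPKM per gene, per the file name; fastp, STAR, featureCounts and DESeq2 and the build mm10 are named in the submitters' processing notes, with no roles, versions or strand setting. Of 12 value columns all were used, and 0 were left out. Whole reads were recovered from the steps of the FPKM values for 25743 of 25854 genes above 0 (99.6%, within 0.02 reads); the library denominators behind them equalled median-of-ratios size factors, so the deposited values do not sum to a constant. Replicate libraries differed by more than sampling noise (chi-square per degree of freedom 2.54 to 11.6), so each counted as 1 sample.

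The 11335 genes that reached 1 FPKM in 3 or more libraries were tested with limma 3.58.1 in R 4.3.3 on log2(FPKM + 1), in 1 fit of 4 group means with a variance trend. Tests were two-sided, with Benjamini-Hochberg adjustment over all genes tested and calls at an adjusted p under 0.05. The count model voom was run only as an alternative on recovered reads. The script was tested on simulated data. Tables and figures used Python 3.11.15, pandas 2.3.3, numpy 2.4.6 and matplotlib 3.10.9.

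The members and lists were chosen with earlier results of these data known. Named genes are the members, the list and marker genes, and for each member the 3 genes of closest profile. Positions and exons come from GENCODE M21 (GRCm38), and promoters from RefSeq (GRCm38.p6); Tlr4, Tlr7 and Unc93b1 had no matched promoter. The exon length implied by the values of Unc93b1 was 2841 bases, against 3031 in that annotation. Depth limits the low values: over the untreated osteoclast libraries Tlr9 rested on 9 reads, and Tlr1, at 0.701 FPKM, on 123. The intervals cover counting error only. Alternatives were a pseudocount of 0.1, 2 other filters, TPM and quantile scaling, only the groups compared, the replicate block, no variance trend, voom, and leaving out each library.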

Additional observations from a re-analysis of the deposited data

Results flagged for a closer look

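The LPS effect differed between osteoclasts and macrophages for 5 of the 10 genes, by limma's test of that difference on log2(FPKM + 1). That is no more than the background, since 56.6% of all genes tested were called. For Tlr3 the effect in osteoclasts minus that in macrophages was -1.94, with 3 of 3 LPS-treated libraries above the untreated ones in both cell types. For Tlr2 it was -1.38. For Tlr1 it was -0.53, for Tlr6 -0.48 and for Unc93b1 -0.28, and these 3 changed sign under other scales, as given with the processing.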

How the results depend on the processing

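The counts of genes called stayed within 1.5 times the reported count under all alternatives run: 7 to 10 for LPS in macrophages, 5 to 10 for LPS in osteoclasts, 8 to 10 for osteoclasts against macrophages without and with LPS, and 4 to 7 for the interaction. The low ends for LPS and for osteoclasts against macrophages come from the filter at a mean of 5 FPKM, which left 8 of the 10 genes to test, without Tlr6 and Tlr9. With 1 library left out they were 9 to 10, 7 to 10, 10, 10 and 4 to 6. For the surface share, leaving out a library gave 37.7% to 38.2%, 86.2% to 86.4%, 52.8% to 53.9% and 80.6% to 83.2%. The replicate block gave 9, 7, 10, 10 and 5 genes called, with no call changed. Whether the numbers pair the libraries is not settled by these values. Correlations of deviations between the 18 same-numbered pairs ran from -0.07 to 0.104, and 7 of 12 libraries correlated best with their own number. Among values called in at least 1 of the compared fits, sign changes were seen after rescaling to TPM for Tlr9 (-0.30) and Unc93b1 (-0.22) with LPS in macrophages and, in the interaction, for Tlr1 (0.45), Tlr4 (0.50), Tlr6 (0.36) and Unc93b1 (0.30); after quantile normalization for Unc93b1 with LPS in macrophages (-0.42) and in the interaction (0.47); and in the interaction for Tlr1 and Tlr6 with a pseudocount of 0.1 (0.15 and 0.094) and with voom (0.32 and 0.27). Among values called in neither, the sign also changed for Tlr8 with LPS in macrophages (-0.37 with TPM, -0.28 with quantile normalization), for Tlr7 in the interaction (0.27 and 0.29), for Tlr4 in the interaction (0.23 with quantile normalization, and without 6 of the 12 libraries in turn) and for Tlr8 in the interaction (-0.092 without replicate 3 of the LPS-treated osteoclasts). The cause was not tested. Over all genes, a filter at a mean of 5 FPKM gave 4851 calls for LPS in macrophages against 7921, 5427 against 8822 and 5694 against 9509 for osteoclasts against macrophages without and with LPS, and 4018 against 6413 for the interaction, with 6430 genes tested in place of 11335. Calls that hung on 1 library were those of Tlr8 with LPS in macrophages (called without replicate 2 or 3 of the LPS-treated osteoclasts), of Tlr7, Tlr8 and Unc93b1 with LPS in osteoclasts (without replicate 2), of Tlr7 in the interaction (-0.63 without replicate 3 of the LPS-treated osteoclasts) and of Tlr1 and Tlr13 in the interaction. The interaction has no fit on only the groups compared, since it uses all 4.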
